A study of Mus musculus with 30 samples.

Results

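The genes described here are 49 genes of the cell cycle and of DNA replication, measured in mouse dendritic cells on microarrays. They were taken as a named list: 24 genes of the G1/S step and of DNA replication, 22 genes of mitosis and 3 inhibitors of cyclin-dependent kinases (CDKs). A probe of the array was given a gene name through its transcript accession, and each gene was read from its probe with the brightest sample signal. Of the 49 genes, 47 had a named probe, and Mki67 and Cenpf had none. Cenpe had a probe that was too dim, which left 46 genes: all 24 of the G1/S step and replication, 19 of mitosis and the 3 inhibitors. They were tested together with the rest of the 11250 genes that passed the same brightness filter, out of 16358 genes with a named probe. The rule that picked the 49 genes uses no measured value.

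A cell that commits to divide passes from G1 into S phase. D-type cyclins bind CDK4 or CDK6, and cyclin E binds CDK2. These kinases release E2F transcription factors from the retinoblastoma proteins, and E2F switches on the genes that copy DNA. Origins of replication are licensed when Cdc6 and Cdt1 load the Mcm helicase, and geminin (Gmnn) holds Cdt1 back so that each origin fires once. Later in the cycle, cyclins A and B with CDK1, the Aurora and Polo-like kinases and the anaphase-promoting complex run mitosis. Inhibitors of the Cip/Kip family (Cdkn1a, or p21, and Cdkn1b, or p27) and of the INK4 family (Cdkn2c, or p18) oppose the CDKs. Dendritic cells mature when they sense bacterial lipopolysaccharide (LPS), a ligand of the receptor TLR4, and mature dendritic cells divide little. Irf4 encodes a transcription factor that acts in dendritic cells and lymphocytes.

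The cells were bone marrow-derived dendritic cells, grown in culture from the marrow of C57BL/6 mice and selected with magnetic beads for CD11c. Control mice carried the CD11c-Cre transgene with no floxed gene, and knockout (KO) mice carried the same transgene with both copies of IRF-4 flanked by loxP sites (IRF-4 flox/flox). Cre driven by the CD11c promoter removes the flanked part of Irf4 in cells that express CD11c, so deletion starts as the cells become CD11c-positive, and every group here carries Cre. Cells of each genotype were left unstimulated or were given LPS for 6 h or for 24 h. That gave 6 groups of 5 biological replicates on 30 arrays. The labels state neither the age of the mice nor the dose of LPS, and they do not say if replicates are separate mice or separate cultures. The p-values therefore measure the spread between these samples alone. Each array set the sample, in Cy5, against the same pooled mouse reference RNA, in Cy3. A level is the log2 of sample over reference, and a level below 0 says only that the sample held less of that RNA than the reference did. A difference between groups is a difference of such levels, so the reference cancels.

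Between 18453 and 27207 of 41174 probes per array were well above background in Cy5, and the number of arrays limits the precision. Irf4 read 1.16 to 2.68 on the 15 control arrays and -2.51 to 0.62 on the 15 KO arrays, with no overlap. Whether its probe lies in the deleted exons was not settled. Dendritic cell markers were high on 28 arrays: the median level of the 11 markers that passed the filter, out of 14 listed, was 3.29 to 4.32. The 11 were Itgax, Zbtb46, Cd74, H2-Aa, H2-Ab1, H2-Eb1, Ciita, Cd86, Ccr7, Cd83 and Dpp4. Flt3, Cd209a and Kmo did not pass. In unstimulated KO cells, replicates 1 and 5 read 1.39 and 0.897. Their Irf4 levels, -2.20 and -2.51, were the lowest of the 15 KO arrays. The other unstimulated KO arrays read -0.85, -1.06 and -0.84 for Irf4. Fits without replicates 1 and 5 therefore leave out the arrays with the least Irf4 RNA. In another pair, replicate 3 of control LPS 6 h and replicate 2 of control LPS 24 h, the array nearest to each over all genes was unstimulated control replicate 1, at a root mean square distance of 0.404 and 0.558 against 0.808 and 0.730 to the nearest array of its own group. This pair alone lay on slide 9 and had a scan day of its own, which no other array shared, so slide and scan day cannot be told apart for it. Together with unstimulated KO replicates 1 and 5 it makes up 4 arrays that stand apart. Markers of neutrophils (of 11 listed, 9 had a named probe and 8 passed the filter, without Ly6g, Retnlg and Cebpe) had median levels of 1.07 to 3.90 on control arrays and 0.291 to 2.14 on KO arrays, and their part in the results below was not tested. RNA came from whole samples, so fewer dividing cells and less RNA of these genes per cell cannot be told apart.

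The first comparison asked how these genes differed between KO and control cells of the same treatment. In unstimulated cells the D-type cyclins Ccnd2 and Ccnd3 and the cyclin E gene Ccne1 were lower in KO than in control, and none of the 46 genes was called higher. At LPS 6 h Ccnd3, Ccne1 and the inhibitor Cdkn2c were lower and the kinase Cdk6 was higher in KO. At LPS 24 h Ccnd2, Ccnd3 and Cdkn2c were lower. A gene was called when its adjusted p, from a limma fit over all 30 arrays with Benjamini-Hochberg adjustment over all 11250 genes, was below 0.05. In unstimulated cells 3 of 46 genes were lower and 0 higher, against 7.13% lower and 6.99% higher among all genes tested. At LPS 6 h 3 were lower and 1 higher, against 5.88% lower and 6.22% higher. At LPS 24 h 3 were lower and 0 higher, against 8.46% lower and 6.98% higher. The counts of lower genes in the 3 comparisons were therefore near the background, and those of higher genes were under it. Every called gene except Cdkn2c belongs to the group of G1 cyclins and kinases. Of the 19 mitotic genes 0 were called at any of the 3 treatments by limma, the only tool run, and 0, 3 and 1 had an unadjusted p below 0.05. The median difference, KO minus control, over the 46 genes was -0.22, -0.41 and -0.16 in unstimulated, LPS 6 h and LPS 24 h cells, beside -0.04, -0.01 and -0.01 over all genes. It was below 0 for 36, 42 and 38 of the 46 genes. Of the 11 dendritic cell markers 8 were also lower in unstimulated KO cells, with a median of -1.61, and their part in these differences was not tested.

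With the 4 arrays left out, a choice made after seeing the data, the genotype count in unstimulated cells went from 3 to 14 lower genes. These were Ccnd2, Ccnd3, Ccne1, Mcm2, Mcm5, Mcm7, Pcna, Rrm1, Tyms, Tk1, Uhrf1, Aurkb, Ube2c and Cdkn2c. The largest difference among them was that of Ccnd2 (-1.67) and the smallest that of Mcm2 (-0.46). The counts at LPS 6 h and 24 h became 7 and 5, and of the genotype calls listed above all 10 were kept. With only unstimulated KO replicates 1 and 5 left out, 4 genes were lower in unstimulated KO cells: Ccnd2 (-1.67), Ccne1 (-1.04), Tk1 (-1.04) and Uhrf1 (-1.15). The count at 6 h was then 7, with Ccnd1, Uhrf1 and Tpx2 added, all lower in KO. At 6 h the count of 4 was 2 without KO LPS 6 h replicate 2 or replicate 3, and at 24 h the count of 3 was 5 without control LPS 24 h replicate 3. The share of all genes called in such alternative fits is not given, here or below. The counts given therefore do not set a general gain or loss of calls apart from one in these genes.

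The second comparison asked what LPS did within each genotype. At 6 h Ccnd2 and Cdk6 rose and Cdk4 fell in both genotypes, and the p21 gene Cdkn1a rose in both. In control cells 4 of 46 genes rose and 1 fell at 6 h, against 7.15% and 4.52% of all genes, and the fourth gene to rise was Tpx2, which builds the spindle. In KO cells 3 rose and 3 fell, against 14.2% and 12.4% of all genes, and the falling genes were Cdk4, Gmnn and Cdkn2c. The median difference over the 46 genes was -0.12 in control and -0.36 in KO cells, beside 0.01 and 0.02 over all genes. Without unstimulated KO replicates 1 and 5, the same 6 h comparison in KO cells gave 6 genes higher (Ccnd1, Ccnd2, Ccne1, Cdk6, Tyms and Tpx2) and 0 lower. The replicate numbers paired the samples in that comparison. With the number as a block 4 genes rose and 6 fell: E2f1, Cdt1 and Cenpa joined the falling genes and Tyms the rising ones. That block spanned the groups of both genotypes, although the numbers did not pair KO with control samples. It is therefore not a paired test within KO cells. Of single arrays, KO LPS 6 h replicate 2 and unstimulated KO replicate 1 took the count of 6 in the fit without a block to 3 and 2 when left out. In control cells the count of 5 was 2 without LPS 6 h replicate 1 or replicate 2, and 13 with all 4 arrays left out.

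At 24 h more replication and mitotic genes were called lower than at 6 h. In control cells Pcna, Cdk4 and Cdc20 fell, and Ccnd2, Ccnd3, Cdk6, Cdkn1a and Cdkn1b rose. In KO cells 11 genes fell: Cdt1, Mcm3, Mcm4, Pcna and Rrm1 of replication, and Ccna2, Aurkb, Plk1, Cdc20, Kif20a and Prc1 of mitosis. Ccnd2, Cdk6 and Cdkn1a rose there. In control cells this was 3 of 46 lower and 5 higher, against 5.06% and 7.24% of all genes. In KO cells 11 of 46 were lower, against 7.84% of all genes, and 3 were higher, against 10.2%. In the same comparison of KO cells 6 of the 11 dendritic cell markers rose, and of 12 macrophage markers 4 fell and 2 rose, with a median of -1.10. In control cells 3 macrophage markers fell and 1 rose, with a median of -0.90. A change of these markers per cell and a change in the share of cells cannot be told apart, and their part in the counts was not tested. The median difference over the 46 genes was -0.71 in control and -0.72 in KO cells, beside 0.02 over all genes in each. It was below 0 for 19 of 19 mitotic genes in both genotypes, with medians of -0.96 and -1.06, and the medians of the 24 G1/S and replication genes were -0.50 and -0.59.

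The 24 h counts, given without the share of all genes called in each alternative, depended on a few arrays and on the scaling. With median centring in place of loess they were 3 in control and 4 in KO cells, and with slide as a random block the KO count was 4. The count in control cells, 8 of 46, was 21 without control LPS 24 h replicate 2 and 4 without control LPS 24 h replicate 1. It was 5 without replicate 4 or 5 of that group or without unstimulated control replicate 1 or 4. With that array and replicate 3 of control LPS 6 h left out together it was 27, of which 22 were lower. In control cells the replicate numbers also paired the samples. With the number as a block over the groups of both genotypes, 16 genes were called in this comparison, 5 higher and 11 lower. Cdc6, Gmnn, Rrm2, Ccnb1, Ccnb2, Aurka, Birc5 and Cenpa joined the lower genes. The block also tied control to KO arrays, which the numbers did not pair, so it is not a paired test within control cells. The count in KO cells, 14 of 46, was 4 without unstimulated KO replicate 1, 4 without replicate 5 and 20 without replicate 2. It was 5 without KO LPS 24 h replicate 2 and 6 without replicate 3. With unstimulated KO replicates 1 and 5 both left out, 0 genes were lower and 4 were higher (Ccnd2, Ccne1, Cdk6 and Tyms), and the median of the G1/S and replication genes was -0.10.

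**Figure D1:**
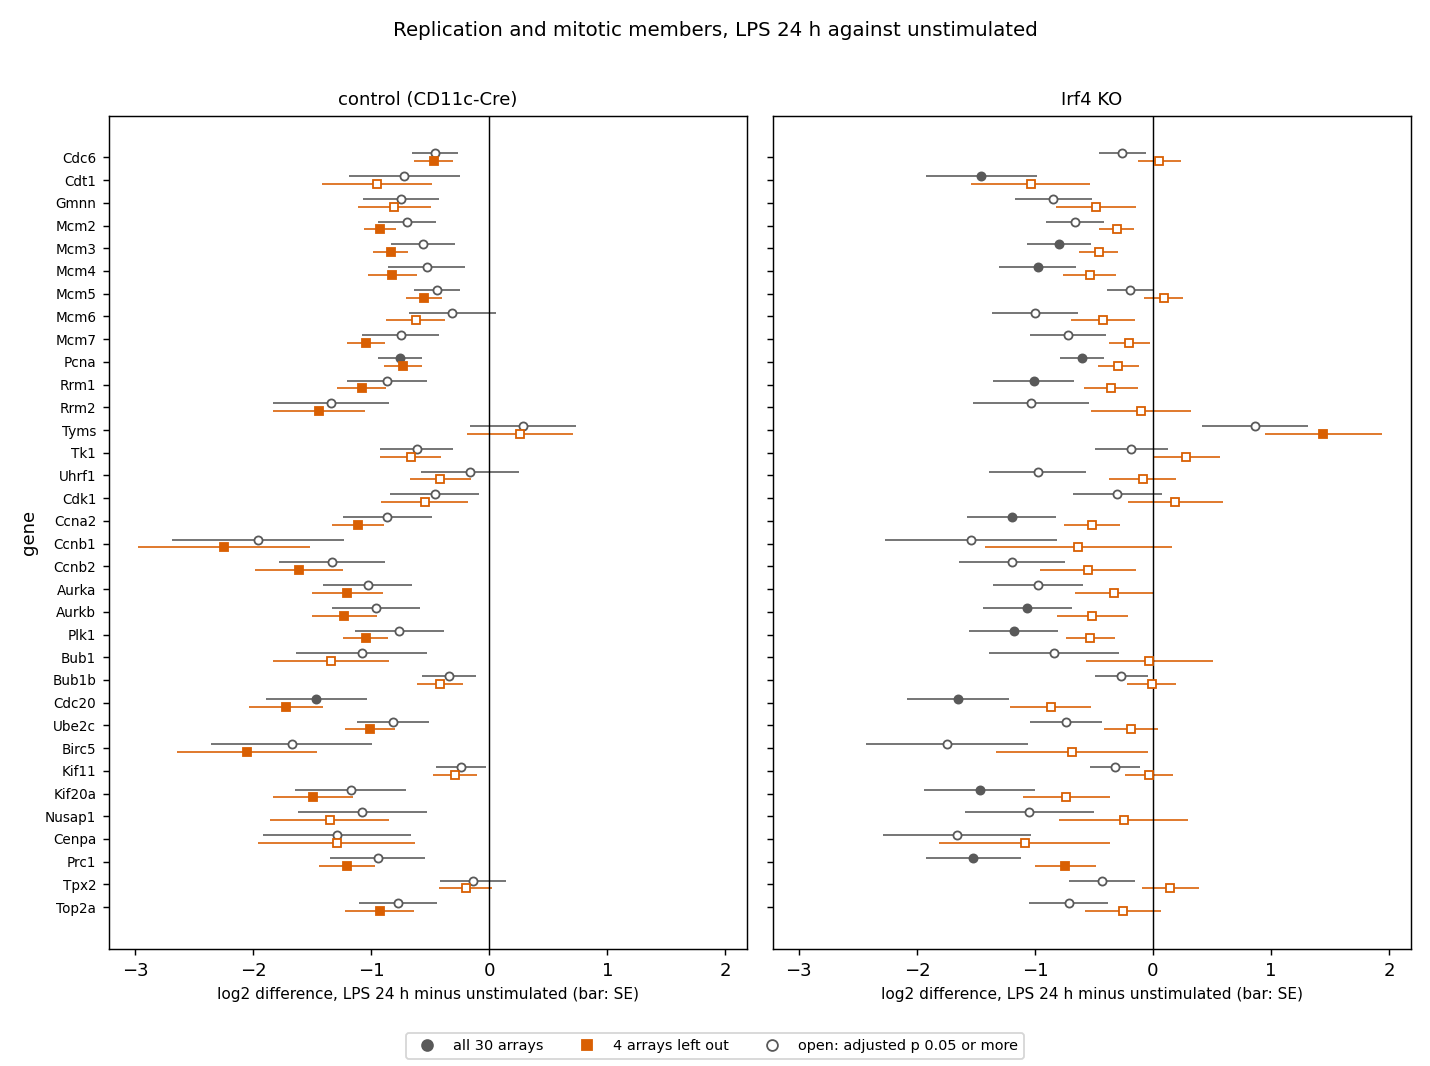
Log2 difference, LPS 24 h minus unstimulated, for each measured replication and mitotic gene in control (left) and KO (right) cells, with SE as bars, over all 30 arrays (circles) and with the 4 arrays that stand apart left out (squares); filled symbols are called. All 19 mitotic circles lie below 0 in both genotypes, and in KO cells the 11 filled circles give way to 1 filled square below 0, that of Prc1.

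Between 6 and 24 h of LPS, 1 of 46 genes fell in control cells, Tpx2, against 2.18% of all genes lower and 3.32% higher. In KO cells Cdk6 fell and E2f1, a transcription factor of the G1/S step, rose, which is 1 of 46 each way against 4.2% and 3.54% of all genes. The replicate numbers paired the samples in that KO comparison, but the fit was not paired. Both calls were kept with the number as a block over the groups of both genotypes, which is not a paired test either. The median difference, 24 h minus 6 h, was -0.50 in control and -0.36 in KO cells, beside -0.02 and -0.01 over all genes. In control cells the count of 1 was 0 without LPS 24 h replicate 4 or 5 or LPS 6 h replicate 1 or 2, and 2 without LPS 24 h replicate 2 or LPS 6 h replicate 3 or 5. In KO cells the count of 2 was 1 without LPS 24 h replicate 1, 2, 3 or 5 or LPS 6 h replicate 1, 2 or 3. With all 4 arrays left out the counts were 8 and 6. The 6 h and 24 h comparisons of a genotype share its unstimulated arrays, so their values are given side by side and are not independent of each other.

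Whether the response to LPS differed between the genotypes was tested as the difference of the responses, KO minus control. Of 46 genes 0 were called at 6 h and 0 at 24 h by limma, against 0.436% and 0.889% of all genes in either direction. An unadjusted p below 0.05 was reached by 1 gene at 6 h (Cdk6) and by 2 at 24 h (Ccne1 and Cdk4). The response of Cdk6 at 6 h was larger in KO by 1.12 ± 0.33 (SE) on the log2 scale, with a limma adjusted p of 0.177. It was called, at the same 1.12, with the replicate number as a block and also when replicates 4 and 5 were set apart from the rest by a term of their own, and no other member was called at 6 h in these fits. The numbers paired the samples for the 6 h response in KO but not in control cells, and did not pair the genotypes at any treatment. At 24 h 19 genes were called with slide as a fixed block, and Ccne1 (0.80) with all 4 arrays that stand apart left out. The response of Ccnd2 at 6 h was larger in KO by 1.15 ± 0.57 (adjusted p = 0.639), with a 95% interval from -0.03 to 2.33. Apart from these fits, a response that passed the threshold in 1 genotype alone was not shown to differ from that in the other.

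The 30 arrays came from 9 slides. No slide held both genotypes at the same treatment, and none held LPS 24 h arrays beside unstimulated arrays of the same genotype. In KO cells none held LPS 6 h arrays beside LPS 24 h arrays. Genotype differences, 24 h responses and the change from 6 to 24 h in KO cells therefore have no value within a slide. Slide 7 held unstimulated and LPS 6 h control arrays, a pair of each, and there all 5 genes called at 6 h had the sign of the full comparison: Ccnd2 2.72, Cdk6 0.67, Tpx2 0.44, Cdkn1a 1.27 and Cdk4 -1.32. Arrays within a slide are among those that gave the calls, so a shared sign is no separate test. The unstimulated arrays on slide 7 were replicates 4 and 5. Every mitotic gene read lower there than in the full comparison, with Ccnb1 at -3.00 against -0.25. Slide 3 held 1 LPS 6 h and 3 unstimulated KO arrays, replicate 5 among them, and all 6 called genes kept their sign, such as Ccnd2 (4.22) and Cdk6 (1.94). For Tpx2, LPS 24 h minus 6 h in control cells was -0.61 on slide 1 and -1.02 on slide 9. The slide 9 value rests wholly on the pair of control LPS arrays that stand apart. With slide as a fixed block, which links the groups through chains of slides, 16 of the 46 calls kept both sign and threshold, 24 lost the threshold and 6 changed sign. With slide as a random block 32 were kept. The slide and the group cannot be told apart for the genotype comparisons, the 24 h responses and the change from 6 to 24 h in KO cells.

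Among the genes of the G1 step, the D-type cyclin Ccnd2 had the largest LPS response. Its levels on the 5 control arrays were 0.79, -0.89, -0.65, 1.56 and 0.62 without LPS, 3.71, 3.91, 1.56, 2.97 and 2.60 at 6 h, and 3.18, 2.71, 3.08, 2.91 and 2.97 at 24 h. In KO cells they were -1.17, -1.28, -1.45, -1.42 and -1.00 without LPS, 2.93, 3.17, 3.24, 1.91 and 1.50 at 6 h, and 0.98, 1.29, 1.34, 1.66 and 1.43 at 24 h. The unstimulated KO arrays were tight and all below the control arrays, of which replicates 1, 4 and 5 were well above replicates 2 and 3. The LPS 24 h groups did not overlap either: every KO array was below every control array. The 6 h groups overlapped.

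On the log2 scale Ccnd2 was lower in KO by 1.55 ± 0.41 (SE, 2.93-fold, limma adjusted p = 0.00945) without LPS and by 1.63 ± 0.41 (adjusted p = 0.00603) at 24 h. At 6 h the difference was -0.40 (adjusted p = 0.59). LPS raised Ccnd2 6.34-fold at 6 h and 6.43-fold at 24 h in control cells (limma adjusted p = 0.000351 and 0.000123). In KO cells it was raised 14.1-fold at 6 h and 6.08-fold at 24 h (adjusted p = 1.97e-07 and 5.08e-05). All 6 of these calls held when any single array was left out. With slide as a fixed block the genotype calls without LPS and at 24 h were lost (limma adjusted p = 0.548 and 0.108). The 24 h response in KO cells was lost there too (adjusted p = 0.0689). Fitting only the compared groups lost the 6 h response in control cells (adjusted p = 0.0592). Between 6 and 24 h in KO cells the used probe read -1.21 (adjusted p = 0.0646), and each of 2 other probes of Ccnd2 was called, at -1.35 and -1.30.

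Ccnd3, another D-type cyclin, differed by genotype at each treatment. In KO cells its levels lay in a narrow band on all 15 arrays, with group means of -1.13 ± 0.11 (SD, n = 5), -1.12 ± 0.12 and -0.97 ± 0.11 without LPS, at 6 h and at 24 h. In control cells the means were -0.47 ± 0.13, -0.27 ± 0.46 and 0.07 ± 0.34. Control and KO arrays did not overlap without LPS or at 24 h. At 6 h control replicate 5, at -0.99, fell within the KO range of -1.22 to -0.96. The differences were -0.66 ± 0.16 (SE, limma adjusted p = 0.00586), -0.85 ± 0.16 (adjusted p = 0.000669) and -1.04 ± 0.16 (adjusted p = 5.25e-05). Each held when any single array was left out. The unstimulated difference had the opposite sign, 0.65, with slide as a fixed block. In that fit the 6 h call was lost (limma adjusted p = 0.79) and the 24 h call was kept. LPS raised Ccnd3 at 24 h in control cells by 0.54 (adjusted p = 0.0274), while in KO cells the 24 h difference was 0.15. The difference between these responses, -0.38, was not called. The third D-type cyclin, Ccnd1, was not called in any of the 11 comparisons. Its unstimulated KO levels were -1.00, -3.49, -3.39, -3.35 and -0.67, with replicates 1 and 5 far above the other 3.

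Ccne1 encodes cyclin E1, the partner of CDK2 at the start of S phase. Its levels in unstimulated cells were 0.81, 0.45, 0.33, 1.14 and 1.17 in control and 0.22, -0.28, -0.29, -0.22 and 0.46 in KO. The top KO array lay between the control arrays, so the groups overlapped, and the difference was -0.80 ± 0.15 (SE, limma adjusted p = 0.000658). At 6 h every KO array (0.14 to 0.45) was below every control array (0.55 to 1.13), with a difference of -0.50 ± 0.15 (adjusted p = 0.0342). That call was lost, at -0.39, without the pair of control LPS arrays that stand apart. A second probe of Ccne1 read -0.72 without LPS, which was called, and -0.42 at 6 h, which was not (adjusted p = 0.0983). At 24 h the difference was -0.27 and was not called. Ccne2, the gene of the related cyclin E2, was not called in any comparison of the fit without a block, and its probe was well above background on 3 to 5 arrays of each group.

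Cdk6, the kinase partner of D cyclins, rose with LPS in both genotypes and was higher in KO than in control at 6 h. Its unstimulated levels were -0.39, -0.79, -0.81, 0.16 and 0.11 in control and -0.15, -0.74, -0.75, -0.61 and -0.23 in KO, and the groups overlapped. At 6 h they were 0.93, 0.67, -0.37, 0.82 and 0.85 in control and 1.41, 1.65, 1.61, 1.81 and 1.27 in KO. At 24 h they were 0.35, -0.04, 0.20, 0.69 and 0.80 in control and 0.43, 0.65, 0.70, 1.30 and 0.97 in KO. The KO arrays at 6 h were above all control arrays, and the lone low control value was that of replicate 3. The genotype difference at 6 h was 0.97 ± 0.23 (SE, 1.96-fold, limma adjusted p = 0.006), and 0.73, still called, with the pair of control LPS arrays that stand apart left out. With slide as a fixed block that call was lost (adjusted p = 0.382).

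LPS raised Cdk6 in KO cells 4.13-fold at 6 h (limma adjusted p = 5.37e-07), and at 24 h the log2 difference was 1.31 (adjusted p = 0.00025). In control cells the log2 differences were 0.93 at 6 h and 0.75 at 24 h (adjusted p = 0.00946 and 0.0353). From 6 to 24 h Cdk6 fell by 0.74 in KO cells (adjusted p = 0.0496), a call that had the opposite sign, 0.40, with slide as a fixed block. A second, dimmer probe of Cdk6 gave the calls at 6 h only, 0.81 between genotypes and 0.83 for LPS in KO cells.

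Cdk4, which binds the same cyclins, went the other way. In control cells its levels were -1.20, -1.44, -1.57, -0.76 and -0.75 without LPS, -2.02, -2.12, -1.03, -1.71 and -1.86 at 6 h, and -2.18, -1.68, -2.11, -2.21 and -2.13 at 24 h. All 24 h arrays were below all unstimulated ones, whereas at 6 h replicate 3 stayed in the unstimulated range. Cdk4 fell by 0.60 at 6 h (limma adjusted p = 0.0237) and by 0.92 at 24 h (adjusted p = 0.00114) in control cells. The control call at 6 h was lost when any of LPS 6 h replicates 1, 2 and 5 or unstimulated replicates 4 and 5 was left out. In KO cells Cdk4 fell by 0.50 at 6 h (adjusted p = 0.0335), with no overlap. That call was lost, at -0.52, without unstimulated KO replicates 1 and 5 together, and in 6 of 10 omissions of a single array, and was called with all 4 arrays left out. The 24 h difference in KO cells was -0.34 and was not called. Cdk2, the partner of cyclin E, was well above background on 5, 4 and 2 of 5 control arrays and on 2, 0 and 0 of 5 KO arrays without LPS, at 6 h and at 24 h, so no fold is given.

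E2f1, the E2F factor that turns on replication genes, rose from 6 to 24 h of LPS in KO cells. Its KO levels were -0.56, -0.86, -0.88, -0.78 and -0.50 at 6 h and -0.03, 0.08, 0.19, 0.08 and -0.14 at 24 h. The groups did not overlap, and the difference was 0.75 ± 0.17 (SE, limma adjusted p = 0.00724). The call held when any single array was left out. With median centring and with slide as a fixed block it was lost (limma adjusted p up to 0.699). KO arrays lay on slides 3 and 4 at 6 h and on slides 5 and 6 at 24 h, so slide and time cannot be told apart here. A second probe of E2f1 read 0.32 and was not called (adjusted p = 0.061). The same interval in control cells gave 0.26, which was not called.

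**Figure D2:**
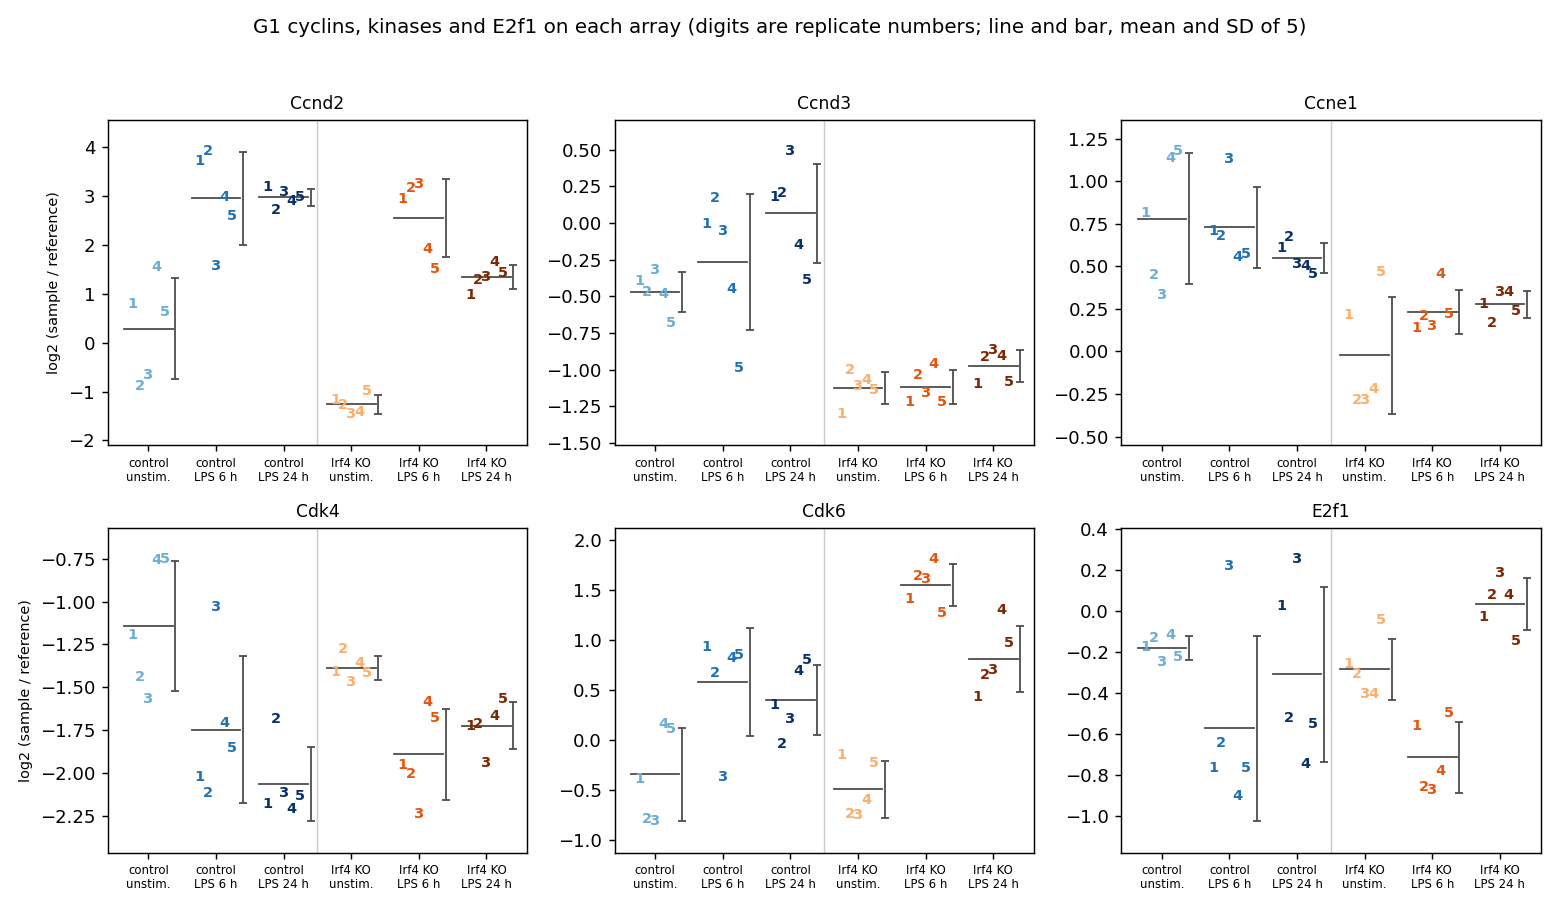
Levels of G1 cyclins, kinases and E2f1 on each array, as log2 of sample over reference, by group, with the mean and SD of 5 arrays and with digits for replicates. Ccnd2 rises with LPS in both genotypes, Ccnd3 is lower in KO at each treatment, and Cdk6 and Cdk4 move in opposite directions after LPS.

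Some replication and mitotic genes carry known short sequences before their start sites. These are shown as a description, and their part in the levels on the arrays was not tested. Promoters came from RefSeq on build GRCm38.p6, and 40 of the 49 genes had an entry, 46 entries in all because 6 genes had more than 1. The windows shown are the 160 bases before the annotated start, read 5′ to 3′ on the strand of the gene. Mcm5 and Mcm6 encode subunits of the replicative helicase. Capitals mark E2F-type sites alone, searched as TTTCGCGC, TTTGGCGC, TTTCCCGC or TTTGCCGC on both strands, where matches on opposite strands can overlap. Both windows also hold CCAAT boxes, a motif described below, which are left in small letters. The Mcm5 window is chr8:75109349-75109508 on the plus strand, with 2 overlapping matches, and the Mcm6 window is chr1:128359706-128359865 on the minus strand, with 3 matches.
Mcm5: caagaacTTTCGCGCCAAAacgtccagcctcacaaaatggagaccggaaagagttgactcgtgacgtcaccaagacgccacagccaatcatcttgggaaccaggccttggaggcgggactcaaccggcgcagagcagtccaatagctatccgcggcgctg
Mcm6: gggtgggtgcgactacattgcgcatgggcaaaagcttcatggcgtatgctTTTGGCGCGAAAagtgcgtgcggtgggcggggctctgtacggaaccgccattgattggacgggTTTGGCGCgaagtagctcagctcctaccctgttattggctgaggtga

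Of the mitotic genes, Cdc20 activates the anaphase-promoting complex, Plk1 is a Polo-like kinase and Cdk1 is the main mitotic kinase. Capitals in their windows mark the cell cycle element called CHR, searched as TTTGAA or TTCGAA, and the CCAAT box, searched as CCAAT, both on either strand. The Plk1 window has 0 CHR matches, and the Cdk1 window also holds an E2F-type match, left in small letters. The windows are chr4:118437344-118437503 on the minus strand for Cdc20, chr7:122159275-122159434 on the plus strand for Plk1 and chr10:69352913-69353072 on the minus strand for Cdk1.
Cdc20: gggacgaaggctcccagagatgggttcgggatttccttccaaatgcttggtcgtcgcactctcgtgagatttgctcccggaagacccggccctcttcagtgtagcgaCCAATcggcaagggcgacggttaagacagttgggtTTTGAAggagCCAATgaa
Plk1: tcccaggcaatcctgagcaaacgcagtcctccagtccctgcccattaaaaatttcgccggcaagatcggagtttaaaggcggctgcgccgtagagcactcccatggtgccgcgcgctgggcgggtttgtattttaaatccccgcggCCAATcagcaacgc
Cdk1: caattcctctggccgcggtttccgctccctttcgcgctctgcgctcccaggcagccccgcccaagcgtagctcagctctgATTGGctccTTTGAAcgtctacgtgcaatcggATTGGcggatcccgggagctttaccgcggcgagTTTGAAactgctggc

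Over 250 bases before the start, an E2F-type match was found in 6 of 22 entries of the G1/S and replication genes (27.3%) and in 1 of 19 entries of the mitotic genes (5.26%). Among all 32851 promoter entries the share was 1.86%. A CHR match was found in 9 of 19 mitotic entries (47.4%) and 2 of 22 G1/S and replication entries (9.09%), beside 17.1% of all entries. A CCAAT box was found in 17 of 19 mitotic entries (89.5%), 13 of 22 G1/S and replication entries (59.1%) and 33.8% of all entries. Of the 5 entries of the inhibitor genes, 1 held a CCAAT box and 0 held either of the other motifs. Over 100 bases the shares were 4.55% and 0% for E2F-type, 4.55% and 36.8% for CHR, and 45.5% and 78.9% for CCAAT, in G1/S and mitotic entries. The corresponding shares of all entries were 0.846%, 6.13% and 18.9%. These matches describe letters in a window and say nothing of binding.

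Of the genes of origin licensing and the helicase, Cdt1, Mcm3, Mcm4 and Gmnn were called lower in KO cells after LPS. With the replicate block, Cdc6 and Gmnn were also called lower at 24 h in control cells, and with the 4 arrays left out Mcm2, Mcm5 and Mcm7 were called lower in unstimulated KO cells. Mcm3 (-0.84) and Mcm4 (-0.82) were then also called lower at 24 h in control cells. Across the 9 genes the 24 h difference was below 0 for all 9 in both genotypes, with a median of -0.56 in control, where 0 were called, and of -0.80 in KO cells, where 3 fell. Of all genes 5.06% fell in control and 7.84% in KO cells. Cdt1, which loads the helicase, read -0.63, -1.99, -1.90, -2.10 and -1.27 in unstimulated KO cells and -2.21, -2.56, -2.87, -4.16 and -3.36 at 24 h. Mcm3 read -1.47, -2.33, -2.13, -2.43 and -1.45 without LPS and -2.46, -2.60, -2.74, -3.07 and -2.91 at 24 h. Mcm4, another helicase subunit, read -1.69, -2.85, -2.58, -2.91 and -1.66 and then -2.96, -3.15, -3.10, -3.80 and -3.58. In each of the 3 genes every 24 h array was below every unstimulated one, and unstimulated replicates 1 and 5 were above the other 3.

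The limma differences at 24 h were -1.45 ± 0.47 (SE, adjusted p = 0.0315) for Cdt1, -0.80 ± 0.27 (adjusted p = 0.0405) for Mcm3 and -0.98 ± 0.33 (adjusted p = 0.0383) for Mcm4. Without unstimulated KO replicates 1 and 5 they were -1.04, -0.46 and -0.54, and none was called. A second probe of Mcm3 read -0.36 and was not called. Gmnn, the inhibitor of Cdt1, fell by 0.99 ± 0.32 at 6 h in KO cells (adjusted p = 0.0242) with overlapping groups, and read -0.63, not called, without the same replicates. The sister helicase genes Mcm2, Mcm5, Mcm6 and Mcm7 and the loader Cdc6 were not called in any comparison of the fit over all 30 arrays without a block. The nearest of these was Mcm6 in KO cells at 24 h, at -1.00 (adjusted p = 0.0582).

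Of the 6 genes of DNA synthesis and nucleotide supply, 1 fell at 24 h in control cells (Pcna) and 2 in KO cells (Pcna and Rrm1). The shares of all genes that fell were 5.06% and 7.84%. Pcna, the sliding clamp of DNA polymerase, read -0.25, -0.39, -0.46, -0.12 and 0.24 in unstimulated control cells and -0.96, -1.03, -1.11, -0.87 and -0.76 at 24 h. Those groups did not overlap, and Pcna fell by 0.75 ± 0.19 (SE, limma adjusted p = 0.00881), a call that held when any single array was left out. In KO cells the levels were -0.27, -0.82, -0.64, -0.71 and 0.34 without LPS and -1.23, -1.31, -1.32, -0.63 and -0.61 at 24 h. Those groups overlapped, since KO replicates 4 and 5 at 24 h stayed within the unstimulated range, and the fall was 0.60 (adjusted p = 0.0258). It was -0.29, not called, without unstimulated KO replicates 1 and 5, and 0.83 with slide as a fixed block.

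Rrm1, a subunit of ribonucleotide reductase, which makes deoxynucleotides, read -1.38, -3.01, -2.70, -2.95 and -1.10 in unstimulated KO cells and -3.03, -3.41, -3.43, -3.19 and -3.12 at 24 h. The groups did not overlap, but replicates 2, 3 and 4 without LPS lay close to the 24 h arrays. The difference was -1.01 ± 0.34 (SE, limma adjusted p = 0.0379), and -0.35, not called, without replicates 1 and 5. The other subunit gene, Rrm2, was not called, with -1.34 in control and -1.03 in KO cells at 24 h, although the replicate block called the control value.

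Tyms, which makes thymidylate, was the 1 gene among those of licensing, helicase and DNA synthesis with a positive LPS difference at both times in both genotypes. Its difference at 6 h was 0.72 in control and 1.19 in KO cells, the second with a limma adjusted p of 0.0505. It was called in KO cells with unstimulated replicates 1 and 5 left out, at 1.77 for 6 h and 1.44 for 24 h. The thymidine kinase gene Tk1 and Uhrf1, which helps copy DNA methylation, were not called. Uhrf1 read lower in KO by 1.00 at 6 h and 1.08 at 24 h, with adjusted p of 0.12 and 0.0793.

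**Figure D3:**
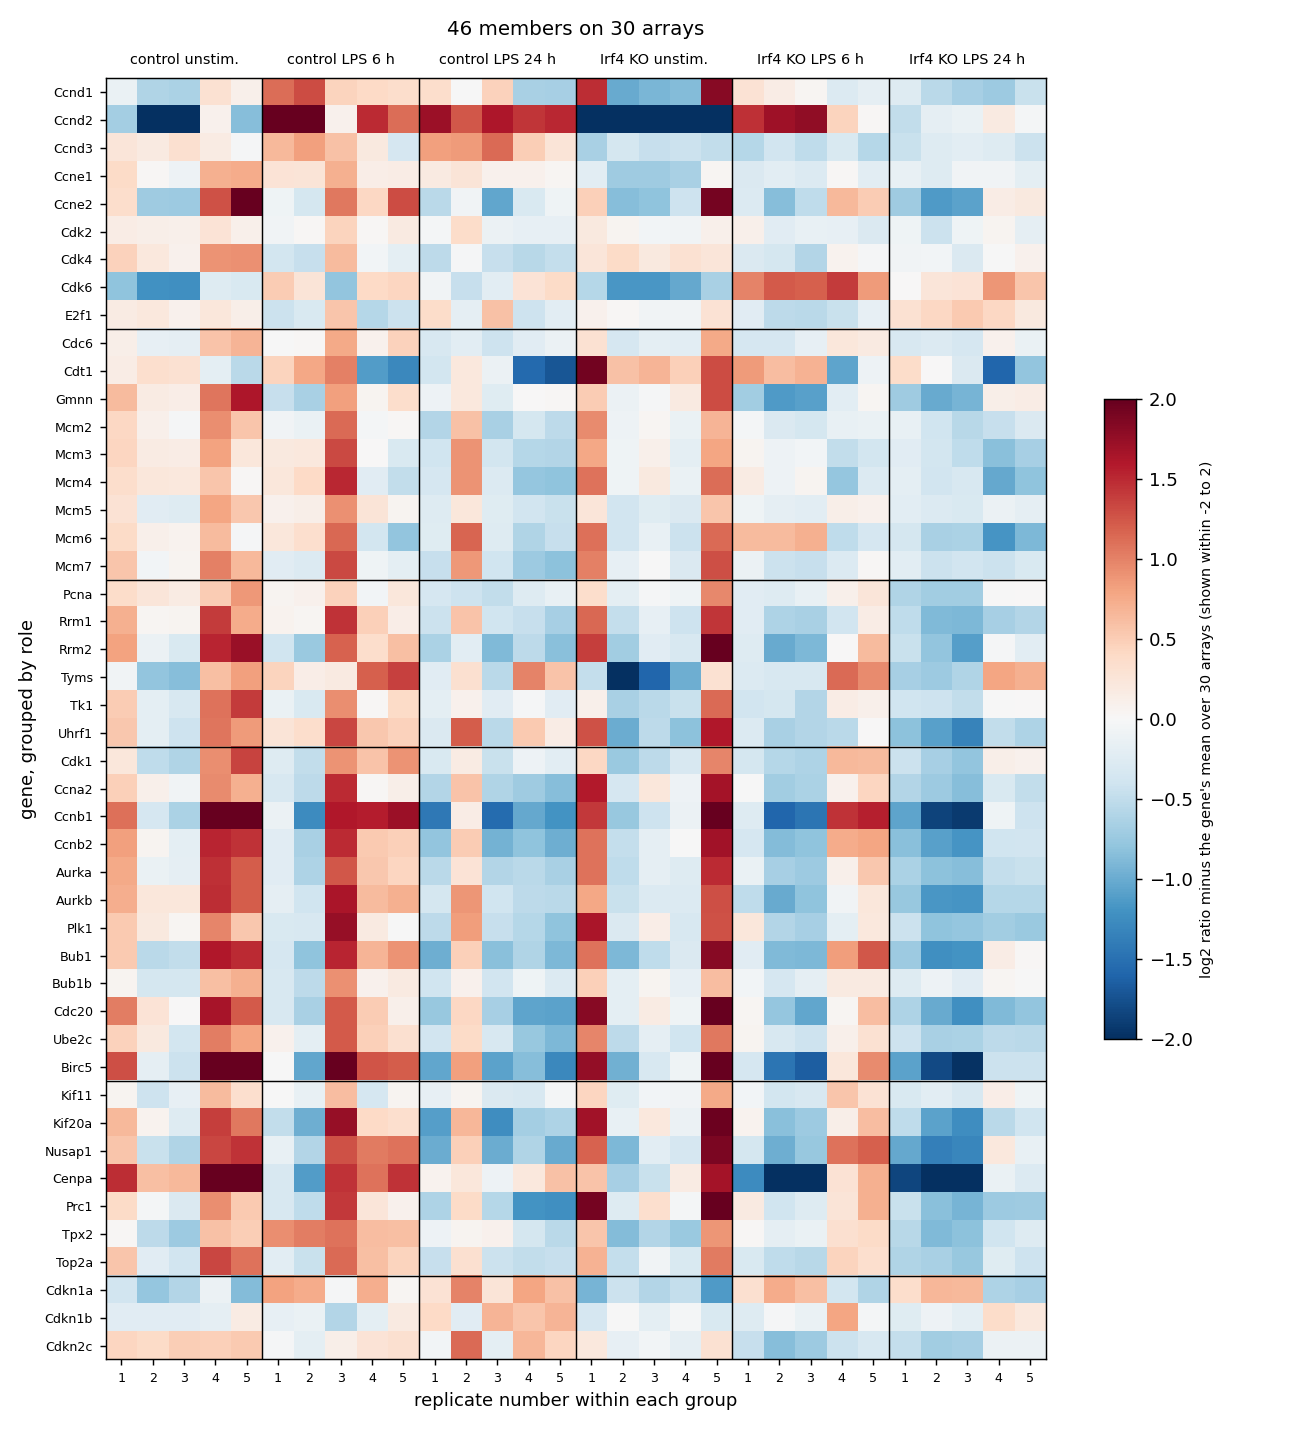
Level of each measured gene on each of the 30 arrays, as log2 of sample over reference after subtracting the mean of that gene over the 30 arrays, with colours cut off at -2 and 2, ordered by role and by group. Replication and mitotic genes are high together on some arrays, among them unstimulated KO replicates 1 and 5. On replicate 4 of KO LPS 6 h and 24 h the replication median is the lowest of its group (-2.72 and -3.04), while the mitotic median is among the higher ones (-1.92 and -2.60).

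The mitotic genes varied more between arrays of the same group than other genes did. Their median SD within groups was 0.63, beside 0.52 for G1/S and replication genes, 0.30 for the inhibitors and 0.30 for all genes. The median SD of their 6 group means was 0.49, beside 0.38, 0.42 and 0.24. Per array, the median level of the 19 mitotic genes in unstimulated KO cells was -1.07, -2.63, -2.28, -2.42 and -0.75. In these cells replicates 1 and 5 were the highest pair for 19 of 19 mitotic genes and for 15 of 15 genes of licensing, helicase and DNA synthesis, against 26.5% of all genes. They were also the arrays with low dendritic cell markers, and the part of cell composition in these levels was not tested.

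Other groups also split. In unstimulated control cells the mitotic median was -1.48, -2.26, -2.35, -0.86 and -1.04, and replicates 4 and 5 were the highest pair for 19 of 19 mitotic genes, against 36.2% of all genes. Control LPS 6 h arrays read -2.33, -2.66, -0.79, -1.62 and -1.53, where replicate 3 was the highest for 16 of 19 mitotic genes, against 28.9% of all genes. Control LPS 24 h arrays read -2.87, -1.60, -2.85, -2.76 and -2.94, where replicate 2 was the highest for 17 of 19, against 27% of all genes. KO arrays read -2.25, -2.93, -2.95, -1.92 and -1.53 at 6 h and -2.81, -3.22, -3.33, -2.60 and -2.54 at 24 h, and replicates 4 and 5 were the higher ones at both times. They were the highest pair for 17 and 14 of 19 mitotic genes. Of the 15 replication genes they were the highest pair for 7 and 8 (46.7% and 53.3%), against 38.3% and 39.6% of all genes. Marker levels also differed between these arrays. The median of 12 macrophage markers (of 15 listed) was 1.88 and 1.96 on unstimulated control replicates 4 and 5 and 3.28 to 3.56 on the other 3, and in unstimulated KO cells it was 2.82 and 2.53 on replicates 1 and 5 and 3.69 to 4.04 on the other 3. In KO cells at 6 h it was 2.69 and 2.68 on replicates 4 and 5 and 3.38 to 3.68 on the others, where the neutrophil median was 1.62 and 1.67 against 0.315 to 0.671. In KO cells at 24 h the macrophage median was 1.28 and 1.93 on replicates 4 and 5 and 2.41 to 2.73 on the others. Control LPS 24 h arrays went otherwise: it was lowest on replicates 4 and 5 (1.21 and 1.27), where mitotic medians were low. On replicate 2, high in mitotic genes, it was 2.07, beside 2.23 and 2.27 on replicates 1 and 3. Control LPS 6 h replicate 3 read 2.17, between 1.50 and 1.52 on replicates 4 and 5 and 3.41 and 3.59 on replicates 1 and 2. The part of these cell types in the mitotic levels was not tested. At 24 h the 5 KO arrays were all below the unstimulated KO median of -2.28, and 4 of the 5 control arrays were below all unstimulated control arrays.

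**Figure D4:**
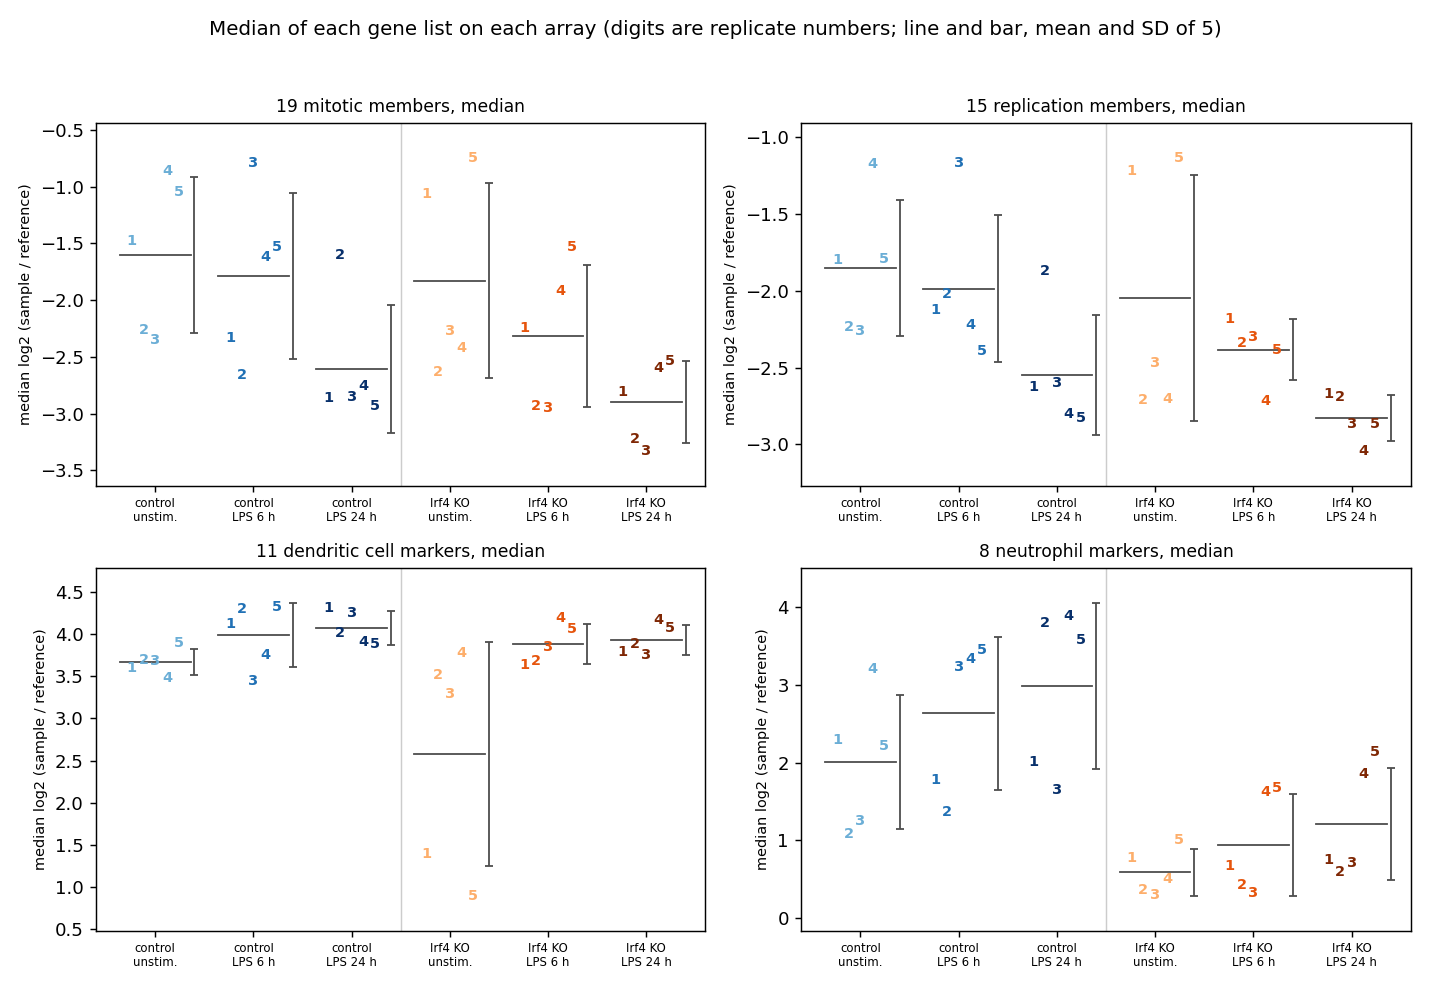
Median level of 19 mitotic genes, 15 replication genes, 11 dendritic cell markers and 8 neutrophil markers on each array, as log2 of sample over reference, by group, with the mean and SD of 5 arrays and with digits for replicates. In unstimulated KO cells replicates 1 and 5 have the highest mitotic medians (-1.07 and -0.75) and the lowest dendritic cell marker medians (1.39 and 0.897).

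Cdc20, the activator of the anaphase-promoting complex, fell at 24 h in both genotypes. In control cells it read -1.76, -2.52, -2.78, -1.15 and -1.57 without LPS and -3.55, -2.38, -3.46, -3.85 and -3.86 at 24 h. In KO cells it read -0.98, -2.98, -2.64, -2.87 and -0.75 without LPS and -3.40, -3.80, -4.03, -3.68 and -3.58 at 24 h. In control cells replicate 2 at 24 h overlapped the unstimulated arrays, while the KO groups did not overlap. The falls were 1.46 ± 0.43 in control (SE, limma adjusted p = 0.0245) and 1.65 ± 0.43 in KO (adjusted p = 0.00773). The second held when any single array was left out, and became -0.87, not called, without unstimulated KO replicates 1 and 5.

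Prc1, which bundles microtubules of the central spindle, read 0.10, -2.08, -1.49, -1.86 and 0.19 in unstimulated KO cells and -2.27, -2.65, -2.75, -2.55 and -2.54 at 24 h, with no overlap. It fell by 1.52 ± 0.40 (SE, limma adjusted p = 0.00826), a call that held when any single array was left out. With unstimulated KO replicates 1 and 5 left out the difference was -0.74, not called, and with all 4 arrays left out -0.74, called.

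Another 4 mitotic genes fell in KO cells at 24 h. Plk1 read -0.70, -2.63, -2.21, -2.66 and -1.06 without LPS and -2.77, -3.15, -3.11, -3.04 and -3.09 at 24 h, and fell by 1.18 (limma adjusted p = 0.0292). Kif20a, a kinesin of cytokinesis, read -0.42, -2.24, -1.88, -2.22 and -0.14 and then -2.61, -3.17, -3.34, -2.63 and -2.49, and fell by 1.47 (adjusted p = 0.0298). Neither gene's groups overlapped, and the arrays at -0.14 to -1.06 were again replicates 1 and 5. Ccna2, the gene of cyclin A2, fell by 1.20 with overlapping groups (adjusted p = 0.0269), and Aurkb, the gene of Aurora kinase B, fell by 1.06 without overlap (adjusted p = 0.0475). Without unstimulated KO replicates 1 and 5 the 4 differences were -0.53, -0.73, -0.52 and -0.52, and none was called. Kif20a and Aurkb had the opposite sign, 1.30 and 0.92, with slide as a fixed block.

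Tpx2, which activates Aurora kinase A and helps to build the spindle, was the mitotic gene that rose. Control arrays read -1.91, -2.45, -2.66, -1.34 and -1.44 without LPS, -1.01, -0.90, -0.85, -1.32 and -1.33 at 6 h, and -2.04, -1.87, -1.85, -2.29 and -2.48 at 24 h. All 6 h arrays were above all arrays of the other groups of control cells, but narrowly so (-1.33 against -1.34 without LPS). Tpx2 rose by 0.88 ± 0.28 (SE, limma adjusted p = 0.0389) and then fell by 1.02 from 6 to 24 h (adjusted p = 0.0284). The rise was lost in 7 of 20 alternatives and in 5 of 10 omissions of a single array. The fall was lost in 2 of 20 and in 4 of 10. In KO cells the 6 h difference was 0.24, not called, and the difference between the responses, -0.65, was not called either. In KO cells without unstimulated replicates 1 and 5 it was 0.81 and was called.

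The other 12 mitotic genes were not called in any comparison of the fit without a block. In control cells at 24 h the replicate block, fitted over the groups of both genotypes, called 5 of them lower: Ccnb1, Ccnb2, Aurka, Birc5 and Cenpa. Their 24 h differences ran from -1.96 for Ccnb1, the gene of cyclin B1, to -0.24 for Kif11 in control cells. Ccnb2, the gene of cyclin B2, was closest to the threshold in control cells at 24 h, at -1.33, with a limma adjusted p just above 0.05. Birc5, or survivin, read -1.67 in control and -1.75 in KO cells. Cenpa, the histone of centromeres, had the lowest genotype differences of the mitotic genes: -1.23, -1.55 and -1.60 without LPS, at 6 h and at 24 h, with adjusted p of 0.111 at 6 h and 0.0863 at 24 h. Its KO levels at 24 h were -2.82, -3.38, -3.36, -1.12 and -1.27 and its control levels -0.92, -0.76, -1.09, -0.78 and -0.40. Every KO array there was below every control array, and KO replicates 4 and 5 were nearest to the control arrays. Kif11 was well above background on 1 array of each LPS 24 h group, so its differences are poorly bounded.

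Of the CDK inhibitors, Cdkn1a and Cdkn1b had calls for a rise with LPS, and Cdkn2c was called lower. Cdkn1a, the p21 gene, read 0.86, 0.47, 0.65, 1.11 and 0.36 in unstimulated control cells, 2.04, 1.97, 1.21, 1.96 and 1.28 at 6 h, and 1.53, 2.23, 1.49, 2.02 and 1.82 at 24 h. In KO cells it read 0.30, 0.80, 0.65, 0.77 and 0.11 without LPS, 1.56, 1.98, 1.84, 0.88 and 0.63 at 6 h, and 1.59, 1.91, 1.89, 0.62 and 0.57 at 24 h. Control arrays with LPS were all above those without it, whereas KO replicates 4 and 5 with LPS, at 0.57 to 0.88, lay in or just above the unstimulated range of 0.11 to 0.80.

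LPS raised Cdkn1a by 1.00 and 1.13 in control cells at 6 and 24 h (limma adjusted p = 0.0181 and 0.00858) and by 0.85 and 0.79 in KO cells (adjusted p = 0.0241 and 0.049). The KO calls were lost without unstimulated KO replicates 1 and 5, at 0.64 and 0.58, and the 24 h value in KO had the opposite sign, -0.55, with slide as a fixed block. No genotype difference in Cdkn1a was called.

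Cdkn1b, the p27 gene, rose at 24 h in control cells. It read -0.13, -0.13, -0.13, -0.09 and 0.25 without LPS and 0.48, -0.13, 0.76, 0.65 and 0.76 at 24 h. Replicate 2, the array near the unstimulated ones, stayed at the unstimulated level, and the other 4 were above. The rise was 0.55 ± 0.18 (SE, limma adjusted p = 0.0457). It was not called without unstimulated KO replicates 1 and 5, which share the estimate of the spread, and was 0.71 and called with all 4 arrays left out. This call was lost in 10 of 19 alternatives (limma adjusted p up to 0.624) and in 8 of 10 omissions of a single array. In KO cells the difference was 0.18 and was not called.

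Cdkn2c, the p18 gene of the INK4 family, was lower in KO cells after LPS. It read -1.98, -2.16, -1.83, -1.69 and -1.63 in control and -2.42, -2.80, -2.69, -2.39 and -2.28 in KO cells at 6 h, with no overlap. At 24 h it read -2.02, -0.82, -2.16, -1.29 and -1.52 in control and -2.43, -2.66, -2.62, -2.07 and -2.07 in KO cells, where the groups overlapped. The genotype differences were -0.66 ± 0.19 (SE, limma adjusted p = 0.0183) and -0.81 ± 0.19 (adjusted p = 0.00325), the second -0.62 and still called with all 4 arrays left out. Both genotype calls were lost with slide as a fixed block, and the 24 h call also when only the compared groups were fitted. Cdkn2c also fell by 0.59 at 6 h in KO cells (adjusted p = 0.019), which was -0.43 and not called without unstimulated replicates 1 and 5.

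**Figure D5:**
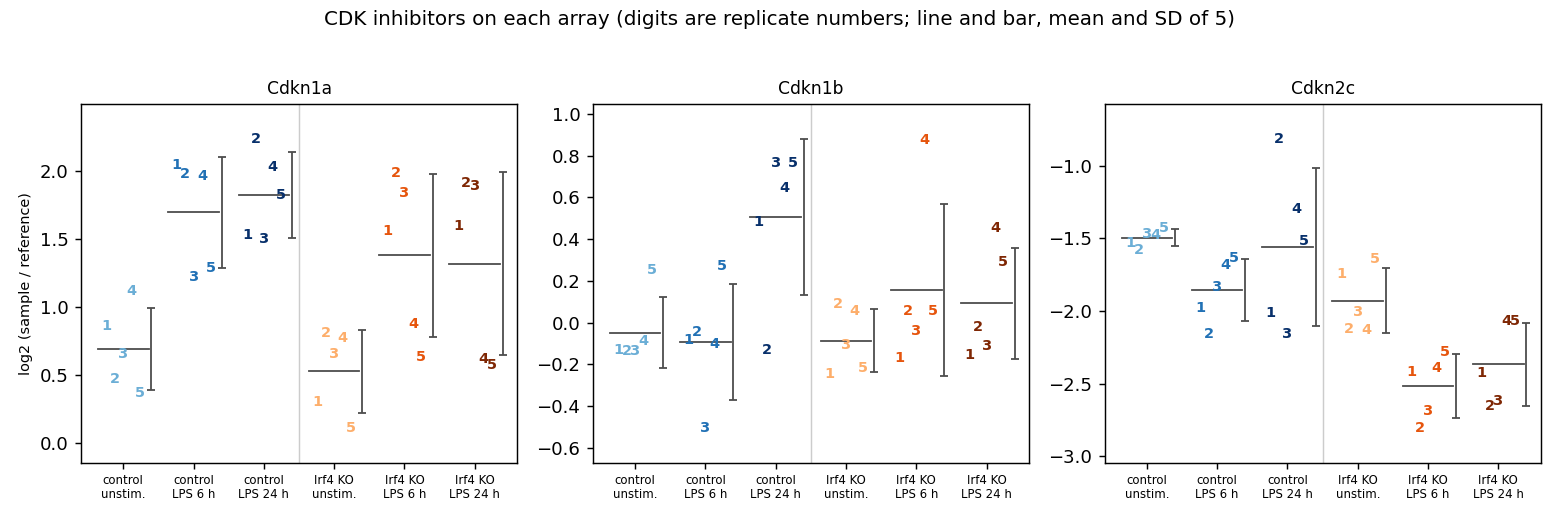
Levels of the CDK inhibitors Cdkn1a, Cdkn1b and Cdkn2c on each array, as log2 of sample over reference, by group, with the mean and SD of 5 arrays and with digits for replicates. Cdkn1a is higher with LPS, Cdkn1b is higher on 4 of 5 control arrays at 24 h, and Cdkn2c is lower in KO after LPS.

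Other genes of the same processes came from lists that are not part of the 49 genes. Of 44 further replication genes 39 were tested. In KO against control 0 were higher and 1 lower without LPS, 1 higher and 5 lower at 6 h, and 1 higher and 1 lower at 24 h. Among all genes 6.99%, 6.22% and 6.98% were higher and 7.13%, 5.88% and 8.46% lower in these 3 comparisons. With LPS for 24 h 3 fell in control cells, against 5.06% of all genes, among them the S-phase kinase gene Cdc7 (-0.91). In KO cells 6 fell and 1 rose, against 7.84% and 10.2% of all genes. The falling genes in KO cells included Lig1, a DNA ligase (-1.00, limma adjusted p = 0.00141), and the rising one was Pola2, a subunit of DNA polymerase alpha (0.86, adjusted p = 5.33e-05). Pola2 was also higher in KO at 6 and 24 h, by 0.43 and 0.70, and its 24 h response differed between genotypes by 0.76 (adjusted p = 0.0479), a call that was lost in 7 of 20 alternatives. Without unstimulated KO replicates 1 and 5 the 24 h calls of Lig1 and Pola2 in KO cells were kept, and those of Pola1 and Rpa1, of DNA polymerase alpha and the single-strand binding protein, were lost. At 6 h Timeless, which protects replication forks, rose by 1.49 in control and 1.65 in KO cells, and from 6 to 24 h it fell by 1.55 in KO cells.

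Of 54 further mitotic genes 46 were tested. None was called between genotypes by limma at any treatment in the fit used throughout, and 1, 4 and 1 had an unadjusted p below 0.05 without LPS, at 6 h and at 24 h. The shares of all genes called in these comparisons are those given above for the replication genes. With LPS for 24 h 1 fell in control cells, Stmn1, a microtubule regulator (-1.67, adjusted p = 0.0265), against 5.06% of all genes, and 9 fell in KO cells, against 7.84%. Among the 9 were Stmn1 (-1.91) and the phosphatase gene Cdc25b (-1.87). Pttg1, the gene of securin, rose at 6 h in both genotypes, by 1.53 and 1.90. In KO cells at 24 h Stmn1 and Cks1b, a CDK subunit, were not called without unstimulated replicates 1 and 5, while Cdc25b was. With slide as a fixed block Stmn1 there had the opposite sign at 0.16, as did Cks1b at 2.57.

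Of 19 further G1/S control genes 17 were tested. With LPS for 6 h 3 rose and 2 fell in control cells, against 7.15% and 4.52% of all genes, and 4 rose and 6 fell in KO cells, against 14.2% and 12.4%. E2f2, another E2F factor, fell with LPS at 6 and 24 h by 1.43 and 1.60 in control and by 1.78 and 1.50 in KO cells. It was also lower in KO at 6 h by 1.21 (limma adjusted p = 0.0104). Myc, which drives growth and entry into the cycle, fell by 1.24 at 24 h in control cells and by 1.16 and 1.41 at 6 and 24 h in KO cells. Rbl1, the gene of the pocket protein p107, rose at 6 h by 0.98 in control and 1.02 in KO cells. From 6 to 24 h it fell by 0.81 and 1.22.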

How the data were processed

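Sample RNA (Cy5) and a universal mouse reference (Cy3) were hybridised together on each of 30 arrays, with no dye swap. Groups and replicate numbers came from the labels. Each array has a deposited scanner file of spot intensity values from Agilent Feature Extraction 10.7.3.1, which also gives a log10 ratio per spot, corrected for background and dye by the scanner software, per the file headers. A series table holds log2 ratios deposited by the authors and made with limma, per the submitters' processing notes. Its columns correlated with the log2 ratios computed here at 0.999885 to 0.999998, and the column medians were 0.0058 to 0.0183. It therefore holds log2 ratios of sample over reference that were not centred on genes.

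Median signals were background-corrected with normexp (offset 50), after non-uniform local backgrounds had been set to the array median, and a loess curve was removed within each array (limma 3.58.1, R 4.3.3). Control spots had weight 0, outlier spots were left out and spots of a probe were averaged. Of 41174 probes 22951 had a gene name. Genes were kept if, in 1 group or more, each of the 5 arrays had the probe well above background in Cy5, and the probe with the brightest mean Cy5 stood for the gene. Of the 46 genes, 10 had more than 1 such probe. One mean per group was fitted over 30 arrays, with 24 residual degrees of freedom and empirical Bayes variances, and p-values were adjusted by Benjamini-Hochberg over genes within each of 11 comparisons. The fit was tested on simulated data.

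Replicate numbers were checked as pairs through the correlation of deviations from group means, over all genes. Every pair was over 0.1 for LPS 24 h against unstimulated in control (0.178 to 0.732). The same held in KO for LPS 6 h against unstimulated (0.109 to 0.657) and LPS 24 h against 6 h (0.791 to 0.875). Those comparisons met the rule for pairing, but their reported values and calls come from the fit without a block. The other comparisons, those between genotypes among them, did not meet this rule. The replicate block was fitted over the groups of both genotypes, so it also tied arrays of the same number in comparisons that did not meet the rule. The labels do not say what the numbers stand for.

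The 49 genes, the other lists and the tests were chosen with earlier results of these data known. A gene of the 49 was given with values if it was called in at least 1 comparison or is a CDK inhibitor, and otherwise within a range or count, and a few others were named after their values were seen. The alternatives concerned background, normalisation, filter, probe choice, variance, replicate, slide, the authors' table and arrays left out. The series title speaks of cells low and high in MHC class II, which no sample label gives, and they were not analysed here.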

Additional observations from a re-analysis of the deposited data

Results flagged for a closer look

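In each group of 5 arrays, the gap between the highest or lowest array and its neighbour was set against the range of the group for each of the 46 genes (Dixon's test, critical value 0.71). Of 276 pairs of a gene and a group, 29 had such an array (10.5%), and chance gives about 1 in 20. Of the 29, 25 came from replicate 3 of control LPS 6 h and replicate 2 of control LPS 24 h, the arrays that lie nearest to an unstimulated control array.

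Control LPS 24 h replicate 2 was the high array for 17 genes. Of the G1 and replication genes its levels were 0.10 for Cdk2, -1.68 for Cdk4, -1.98 for Mcm2, -1.34 for Mcm3, -1.16 for Mcm6, -1.91 for Mcm7 and -1.97 for Rrm1. Of the mitotic genes they were -2.28 for Ccna2, -1.39 for Ccnb2, -1.89 for Aurka, -1.27 for Aurkb, -1.50 for Plk1 and -2.28 for Bub1. They were -2.38 for Cdc20, -1.82 for Birc5, -1.55 for Nusap1 and -2.59 for Top2a.

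Control LPS 6 h replicate 3 was the high array for Ccne1 (1.13), E2f1 (0.22), Mcm2 (-1.44), Mcm5 (-0.53), Mcm7 (-1.45), Uhrf1 (-1.85) and Plk1 (-0.60), and the low array for Cdk6 (-0.37). The other 4 were Ccne1 on KO LPS 6 h replicate 4 (0.45), Cdk2 on unstimulated control replicate 4 (0.0065), and Cdkn1b on unstimulated control replicate 5 (0.25) and KO LPS 6 h replicate 4 (0.88). The difference of LPS responses between genotypes was called for none of the 46 genes in the limma fit without a block, and 1 gene at 6 h and 2 at 24 h had an unadjusted p below 0.05. Fits with a replicate block called 1 gene at 6 h, Cdk6 (1.12), and the fixed slide block called 19 at 24 h.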

How the results depend on the processing

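The 46 calls of single genes were repeated under 20 alternatives. Ccnd2 with LPS at 24 h in control and at 6 h in KO, Ccnd3 between genotypes at 24 h, Ccne1 between genotypes without LPS, Cdk4 with LPS at 24 h in control, and Cdk6 with LPS at 6 and 24 h in KO kept their sign and call in all 20. The authors' table kept 46 of 46, local background as scanned 40, the Agilent log ratio 42, quantile normalisation 40, Cy5 alone 42, no filter 38 and median centring 21. Median centring moved the median of all genes by up to -0.11 (KO against control at 6 h). Reversed with slide as a fixed block were, for LPS 24 h in KO cells, Aurkb 0.92, Kif20a 1.30, Pcna 0.83, Cdkn1a -0.55, Chek2 1.26, Cks1b 2.57, Sesn1 0.029 and Stmn1 0.16, and further Ccnd3 0.65 between genotypes without LPS and Cdk6 0.40 from 6 to 24 h in KO cells. The cause was not tested.

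Counts below are in the order KO against control without LPS, at 6 h and at 24 h (G0, G6, G24), LPS 6 h and 24 h against unstimulated and 24 h against 6 h in control (C6, C24, C24/6) and in KO (K6, K24, K24/6), and differences of response at 6 and 24 h (I6, I24), where the reported counts were 3, 4, 3, 5, 8, 1, 6, 14, 2, 0 and 0. The share of all genes called in each alternative is not given beside its counts. Fitting only the compared groups, which leaves fewer arrays, gave G0 5, C6 0, C24 5 and K24/6 8. The replicate block kept 46 of 46 calls and gave G0 6, G6 7, G24 5, C24 16, C24/6 5, K6 10, K24 22 and I6 1. A term for replicates 1 to 3 against 4 and 5 gave G0 7, G24 6, C24 19, C24/6 5, K6 10, K24 24, K24/6 4 and I6 1. The fixed slide block gave G0 12, G6 0, G24 13, C6 22, C24 31, C24/6 2, K6 2, K24/6 11 and I24 19, and the random slide block K24 4 and K24/6 1. Leaving out all 4 arrays gave G0 14, G6 7, G24 5, C6 13, C24 28, C24/6 8, K24 5, K24/6 6 and I24 1. Leaving out unstimulated KO replicates 1 and 5 gave G6 7, C24 14, C24/6 2 and K24 4, and leaving out control LPS 6 h replicate 3 and LPS 24 h replicate 2 gave G24 5, C24 27, C24/6 3, K6 10 and K24/6 4. Median centring gave C6 2, C24 3, K6 3, K24 4, K24/6 1 and I6 1. Local background as scanned gave C24 14 and C24/6 2. The offset of 10 gave C24/6 2 and K24/6 1, no filter K24 9 and K24/6 1, and quantile normalisation K24/6 1. The Agilent log ratio, the mean over probes and a robust trended variance each gave C24/6 2.

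Leaving out single arrays gave G0 3 to 4, G6 2 to 5, G24 3 to 5, C6 2 to 7, C24 4 to 21, C24/6 0 to 2, K6 2 to 7, K24 4 to 20, K24/6 1 to 3, and 0 for I6 and I24. Of 460 single-gene checks of this kind 330 kept the call and 130 lost it, with 0 reversed.

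Medians moved with the fixed slide block: for G1/S and replication genes G0 -0.70, G24 0.88, C6 -0.55, C24 -1.12, K24 0.67, K24/6 0.43, I6 0.49 and I24 1.58, and for mitotic genes G0 -1.85, G24 1.99, C6 -1.63, C24 -2.58, K24 1.30, K24/6 1.88, I6 1.01 and I24 3.80. Without unstimulated KO replicates 1 and 5 the G1/S medians were G0 -0.57, K24 -0.10, I6 0.16 and I24 0.49. Without all 4 arrays they were G0 -0.57, K24 -0.10, I6 0.34 and I24 0.50, and the mitotic medians were I6 0.56 and I24 0.73. Signal over background limits Cdk2, Ccne2, Kif11 and, in 1 group, Cdkn1b. With 5 arrays a group and a within-group SD near 0.63, mitotic differences of about 1 log2 unit lay close to the threshold.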

Other observations

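Of 5 further CDK inhibitor genes 4 were tested. Cdkn2b, the p15 gene of the INK4 family, was lower in KO by 3.07 ± 0.57 (SE) without LPS (limma adjusted p = 0.000416) and by 2.34 at 6 h (adjusted p = 0.00618). LPS at 24 h raised it in KO cells by 2.97 (adjusted p = 0.000463). Cdkn1c, the p57 gene, was higher in unstimulated KO cells by 2.05 (adjusted p = 0.0251), a call that was lost without unstimulated KO replicates 1 and 5. Cdkn2d, the p19 gene of the same family as Cdkn2b, was lower in KO at 6 h by 0.94 (adjusted p = 0.00176) and rose by 0.63 with LPS at 6 h in control cells (adjusted p = 0.0354).

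Of 19 genes known, like Cdkn1a, as targets of the tumour suppressor p53, 18 were tested. At LPS 6 h 3 rose and 2 fell in control cells, against 7.15% and 4.52% of all genes, and 3 rose and 5 fell in KO cells, against 14.2% and 12.4%. Mdm2, which degrades p53, rose by 1.20 and 1.26 at 6 and 24 h in control and by 1.35 and 0.96 in KO cells. The death receptor gene Fas rose by 0.93 and 0.95 in control and by 2.42 and 1.61 in KO cells. Sesn1, a stress-response gene, fell by 1.06 and 0.79 in control and by 1.45 and 1.18 in KO cells. With slide as a fixed block the 24 h value of Sesn1 in KO cells had the opposite sign (0.029), and none of the genotype calls of Gadd45a and Pmaip1 given next was kept. Gadd45a, which responds to DNA damage, was higher in KO at each treatment, by 1.11, 1.69 and 1.55. Pmaip1, which promotes apoptosis, was lower at each, with differences of -1.20, -0.97 and -1.37. Bbc3, another apoptosis gene, was the 1 member of this list whose 24 h response differed between genotypes, at -1.11 (adjusted p = 0.0172). That call was lost in 3 of 20 alternatives: median centring, slide as a random block, and unstimulated KO replicates 1 and 5 left out, with adjusted p up to 0.169.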
